A study of Mus musculus with 14 samples.

Results

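Natural killer (NK) cells and a sorted tumour fraction labelled sCAF, both from the 4T1 breast cancer model, were examined here. The subject is 6 genes of the transforming growth factor beta (TGF-beta) pathway, chosen by name and with earlier results of these data known. The 6 genes are the ligand gene Tgfb1, the receptor genes Tgfbr1 and Tgfbr2, and the genes of 3 restraining proteins, Smad7, Skil and Tgif1. They are 6 of the 10210 genes in the NK count table and 6 of the 12235 in the sCAF table, and all 6 were among the 8471 NK genes tested. There were 3 NK libraries from healthy BALB/c spleens, 4 from spleens of tumour-bearing BALB/c females and 4 from their kind of tumour, grown from 4T1-GFP cells. The sCAF libraries, whose label stands for a kind of cancer-associated fibroblast, came from 4T1-GFP tumours as well (3 libraries). In them carcinoma or epithelial markers summed to 2995 to 3861 CPM (counts scaled to a common library size), mostly from the keratin genes Krt18 and Krt8. Fibroblast markers summed to 454 to 1210 CPM. The libraries are therefore called here by their label and not as fibroblasts. The 4T1 line derives from a mouse mammary carcinoma and stands for triple-negative breast cancer here, and GFP is a fluorescent protein that marks the injected cells. Females of 8 weeks received 100000 such cells in the lower left mammary fat pad, and mice of 8 weeks were kept free of specific pathogens. No group carried an engineered allele or received a drug, and the time from injection to collection is not given in the sources used here. The NK sort kept cells with CD45 and NKp46 and without CD3, CD14, CD31, EPCAM or GFP. The sCAF sort kept cells that lacked PDPN, CD31, CD45, EPCAM and GFP, so these are a sorted fraction of the tumour. Tumours were digested with collagenase A and DNase for 20 min at 37 °C, whereas spleens were crushed and treated on ice, so that tissue and dissociation cannot be told apart in any comparison of tumour NK with spleen NK. The labels call the libraries of a group independent replicates without saying whether each came from its own animal, and p-values measure the spread between these libraries. Total counts over listed genes were 559688 to 1966963 in NK libraries and 1318067 to 2230475 in sCAF libraries, and the 3 counts that a value of 0 allows equal 1.54 to 4.62 and 1.35 to 2.28 CPM, which covers counting error only.

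TGF-beta is secreted in a latent form and must be released before it binds. The type II receptor, encoded by Tgfbr2, then recruits and phosphorylates the type I receptor, encoded by Tgfbr1, which phosphorylates SMAD2 and SMAD3, and these enter the nucleus with SMAD4. The genes Smad7 and Skil are raised by the pathway itself and restrain it: SMAD7 blocks and degrades the type I receptor, SKIL (SnoN) represses SMAD targets, and TGIF1 is a homeodomain corepressor that binds SMAD2. In NK cells TGF-beta is known for lowering cytotoxic function and for driving features of tissue-resident innate lymphoid cells.

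Promoters of members are shown first as a description of sequence, since the pathway acts through short SMAD sites. Whether such sites bear on the members' levels was not tested. Per the GENCODE M21 annotation of GRCm38, Tgfb1 lies on chromosome 7 (25687002 to 25705077, plus strand), Tgfbr1 on chromosome 4 (47353222 to 47414931, plus), Tgfbr2 on chromosome 9 (116084293 to 116175360, minus), Skil on chromosome 3 (31095058 to 31122577, plus) and Tgif1 on chromosome 17 (70844205 to 70853546, minus). All are protein-coding, and mm10, the build of the submitters' processing notes, is this assembly. RefSeq promoter windows of GRCm38.p6 were at hand for 4 of the 6 members. The windows below are the 250 bases before an annotated start, contain no annotated exon, and are written 5′ to 3′ on the gene's strand. Capitals mark CAGAC, the SMAD box, and TGTCA, the core recognised by TGIF proteins, on either strand (so also GTCTG and TGACA).

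Tgif1, chr17:70851735-70851984, minus strand: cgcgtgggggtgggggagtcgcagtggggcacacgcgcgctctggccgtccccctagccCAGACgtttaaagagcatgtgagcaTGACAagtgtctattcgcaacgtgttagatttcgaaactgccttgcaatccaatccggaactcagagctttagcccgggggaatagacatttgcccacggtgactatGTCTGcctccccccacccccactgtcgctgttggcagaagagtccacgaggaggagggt

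Tgfb1, chr7:25686752-25687001, plus strand: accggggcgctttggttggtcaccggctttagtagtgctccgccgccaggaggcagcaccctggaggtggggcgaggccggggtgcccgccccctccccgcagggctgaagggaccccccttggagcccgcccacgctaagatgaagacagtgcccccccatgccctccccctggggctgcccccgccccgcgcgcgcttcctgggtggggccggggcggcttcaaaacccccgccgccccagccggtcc

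Tgfbr1, chr4:47352972-47353221, plus strand: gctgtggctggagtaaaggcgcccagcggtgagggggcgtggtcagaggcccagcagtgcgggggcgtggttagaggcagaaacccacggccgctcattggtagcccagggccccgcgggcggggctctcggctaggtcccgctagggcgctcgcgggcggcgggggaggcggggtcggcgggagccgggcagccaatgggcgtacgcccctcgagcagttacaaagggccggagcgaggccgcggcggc

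Tgfbr1, second start, chr4:47385966-47386215, plus strand: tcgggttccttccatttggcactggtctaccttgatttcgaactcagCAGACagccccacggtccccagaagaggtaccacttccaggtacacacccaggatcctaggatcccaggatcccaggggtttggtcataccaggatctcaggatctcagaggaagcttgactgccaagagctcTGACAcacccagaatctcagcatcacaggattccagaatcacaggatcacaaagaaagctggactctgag

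Tgfbr2, chr9:116175364-116175613, minus strand: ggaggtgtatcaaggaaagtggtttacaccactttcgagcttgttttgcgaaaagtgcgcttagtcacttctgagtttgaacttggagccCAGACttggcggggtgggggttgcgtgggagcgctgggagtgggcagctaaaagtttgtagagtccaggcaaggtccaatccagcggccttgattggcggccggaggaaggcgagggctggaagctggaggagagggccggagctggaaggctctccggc

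The Tgif1 window shown, which lies before a start within the gene, held 2 matches to CAGAC and 1 to TGTCA, and the Tgfbr2 window 1 match to CAGAC. Tgfbr1 has 2 windows: the one before the start of the gene held neither motif, and the one before a second start within the gene held 1 match to each. The Tgfb1 window held neither. Other Tgif1 windows overlap annotated exons and are not shown. CAGAC occurred in 42.2% and TGTCA in 40% of 32851 promoter windows of this length, so these matches are common. The full SMAD palindrome GTCTAGAC, found in 0.167% of all windows, and the AP-1 motif TGANTCA (N is any base), found in 6.75%, were in none of the 5 windows shown. Neither of these contains CAGAC or TGTCA on either strand. A match is a description of the sequence and not a measured binding site.

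In tumour NK cells the ligand, the type II receptor and all 3 restraining genes stood above both spleen groups. The levels are CPM, counts scaled to a common library size by TMM, a scaling that evens out differences in composition. Tumour NK libraries were compared with NK libraries from tumour-bearing spleens by edgeR's quasi-likelihood test, and a call means a p under 0.05 after Benjamini-Hochberg adjustment across the 8471 genes. Of the 6 members 5 were called higher and 0 lower, against 15.8% of all genes called higher, 13.2% called lower and 29.0% called in either direction. The same 5 did not overlap between the groups, against 16.5% of all genes that were higher without overlap. With upper-quartile scaling in place of TMM, calls over all genes turned from 1338 higher and 1115 lower to 1091 higher and 1530 lower, and the same 5 members were called higher. The median log2 difference of the 6 was 2.27, beside 0.00 over all genes. The members were chosen with earlier results of these data known, so their counts and median are descriptions. Against healthy spleens the count was again 5 of 6, beside 16.5% of genes called higher, 14.0% called lower and 30.5% called in all, and the 5 were again without overlap, as were 18.5% of genes that were higher. Both comparisons use the same 4 tumour libraries. Between tumour-bearing and healthy spleens 0 of the 6 members were called, where 1.58% of all genes were (1.23% higher, 0.354% lower). There 0 members passed an unadjusted p of 0.05, and DESeq2 called 0 as well. Since these are bulk libraries, fewer cells of a type and less RNA per cell cannot be told apart.

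**Figure D1:**
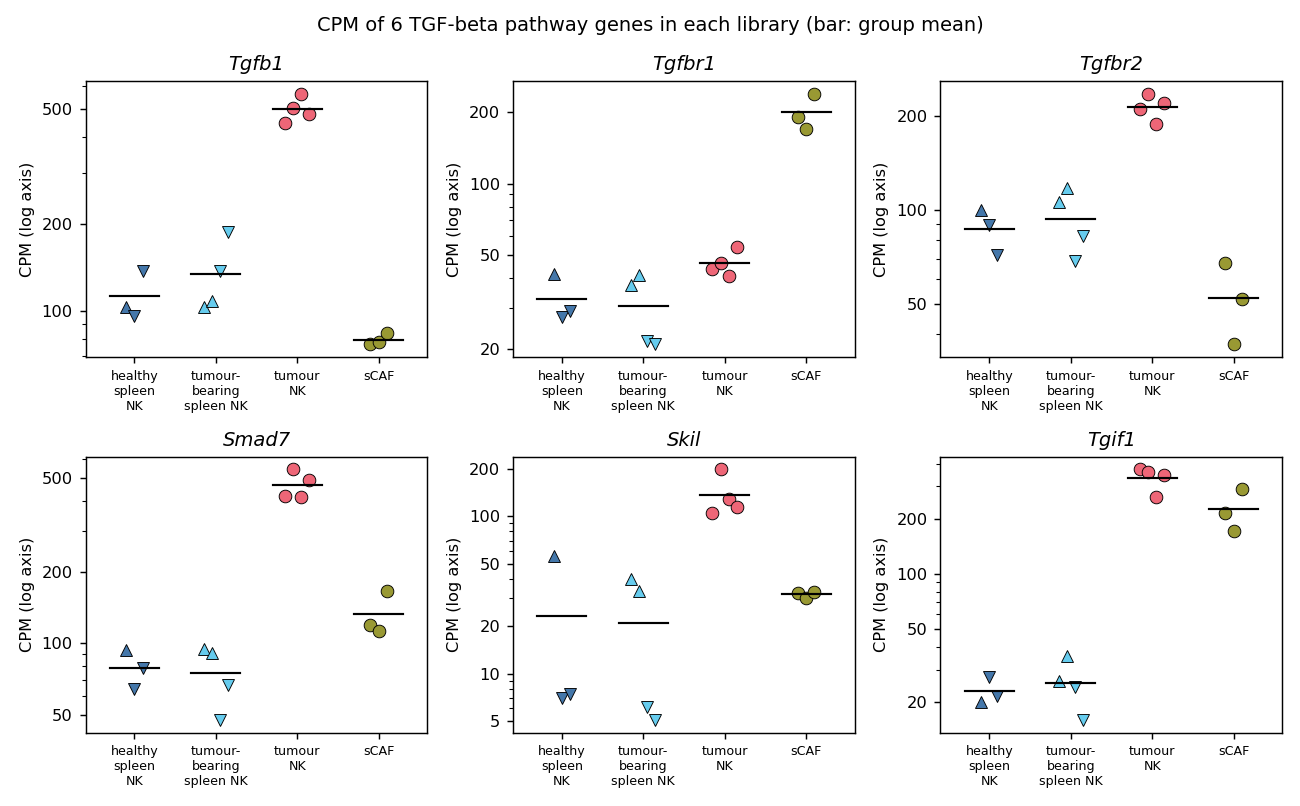
CPM of each member on a logarithmic axis in each library of the 4 groups, 1 point per library, with the group mean as a bar; upward and downward triangles mark the 2 sides of a split among the spleen libraries, and sCAF values come from a table scaled on its own. Tumour NK points lie above all spleen points for every gene but Tgfbr1, and the Skil points of the spleens fall into a high and a low set.

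Tgfb1 encodes TGF-beta 1, the main ligand made by immune cells. Its level was 103, 95.8 and 138 CPM in healthy spleen replicates 1 to 3, and 103, 108, 138 and 188 CPM in tumour-bearing spleen replicates 1 to 4. In tumour NK replicates 1 to 4 it was 447, 501, 564 and 481 CPM. All tumour libraries lay above all spleen libraries, while the spleen groups overlapped. Tgfb1 was 3.71-fold higher in tumour NK than in tumour-bearing spleen NK (log2 1.89, SE 0.18, edgeR adjusted p = 1.11e-07). Against healthy spleens it was 4.44-fold higher (log2 2.15, SE 0.20, edgeR adjusted p = 1.35e-07), and between the spleen groups the log2 difference was 0.26 (SE 0.20, edgeR adjusted p = 0.711).

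The list of ligand, latency and activation genes held 17 names, of which 7 were in the NK table and 6 were tested. Tumour NK were called higher for 4 and lower for 1 of the 6 in each comparison with a spleen group, with a list median of 0.75 against tumour-bearing spleens and 1.27 against healthy ones. Over all genes 29.0% and 30.5% were called in either direction. Furin encodes the protease that cleaves the TGF-beta precursor. It rose from 49.2 ± 13.5 CPM (SD, n = 4) in tumour-bearing spleens to 192 ± 49.2 (SD, n = 4) in tumours, 3.96-fold (edgeR adjusted p = 4.21e-07). Nrros, whose product tethers latent TGF-beta on myeloid cells, fell from 142 ± 17.8 (SD, n = 4) to 67.9 ± 8.54 CPM (SD, n = 4), a log2 difference of -1.05 (edgeR adjusted p = 2.87e-05). Ltbp3, the gene of a latency binding protein, stood at 26.2 CPM in tumours and 15.7 in tumour-bearing spleens (log2 0.75, edgeR adjusted p = 0.0252). That call was lost without tumour-bearing spleen replicate 1 (adjusted p = 0.0678) or 2 (0.0825) and without tumour replicate 3 (0.0655) or 4 (0.0810). Tgfb3, the only other ligand gene listed, had 10.9 ± 6.51 CPM (SD, n = 4) in tumours and 7.20 ± 4.79 (SD, n = 4) in tumour-bearing spleens, without a call.

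Of the genes of the signalling receptors, 1 of 2 was called. Tgfbr2, which encodes the ligand-binding type II receptor, stood at 100, 89.9 and 71.8 CPM in the healthy spleens and at 106, 118, 69.0 and 82.4 in the tumour-bearing spleens. Its tumour values were 212, 236, 189 and 221 CPM. The 4 tumour values lay above all 7 spleen values. Tgfbr2 was 2.28-fold higher than in tumour-bearing spleens (log2 1.19, SE 0.16, edgeR adjusted p = 1.26e-05) and 2.47-fold higher than in healthy spleens (log2 1.30, SE 0.18, edgeR adjusted p = 1.85e-05). The spleen groups differed by log2 0.11 (SE 0.18, edgeR adjusted p = 0.893).

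Tgfbr1, the gene of the signalling type I receptor, was the member that was not called. It had 41.6, 27.3 and 28.9 CPM in the healthy spleens, 37.3, 41.3, 21.6 and 20.97 in the tumour-bearing spleens, and 43.4, 46.4, 40.9 and 54.2 in the tumours. The highest spleen libraries reached the lowest tumour library. The log2 difference was 0.60 (SE 0.23, edgeR adjusted p = 0.0541) against tumour-bearing spleens and 0.55 (SE 0.26, edgeR adjusted p = 0.114) against healthy spleens. The first of these passed the threshold without tumour-bearing spleen replicate 1 (adjusted p = 0.0475) or 2 (0.0171), and the second without healthy spleen replicate 1 (0.0461). The other 3 genes of the receptor list, Tgfbr3, Eng and Acvrl1, have no value in the NK table.

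Of the 6 genes of signal-carrying SMADs, 5 were in the NK table and 4 were tested. The gene of SMAD3, which carries the TGF-beta signal, fell from 157 ± 11.2 CPM (SD, n = 4) in tumour-bearing spleens to 120 ± 9.32 (SD, n = 4) in tumours, a log2 difference of -0.38 (edgeR adjusted p = 0.0231). That call was lost without tumour-bearing spleen replicate 3 (adjusted p = 0.0863) or tumour replicate 2 (0.0668). Against the healthy spleens, at 213 ± 13.4 CPM (SD, n = 3), Smad3 was lower by a log2 difference of -0.82 (edgeR adjusted p = 7.92e-05). Smad5, a carrier of bone morphogenetic protein (BMP) signals, was called lower against healthy spleens (log2 -0.79, edgeR adjusted p = 0.00595), but not without healthy spleen replicate 2 (0.0538). Smad1, another BMP carrier, had 9.71 CPM in tumours and 3.74 in tumour-bearing spleens (log2 1.32, edgeR adjusted p = 0.0375), from a mean of 11.2 and 6.25 counts per library. The Smad1 call was lost without tumour-bearing spleen replicate 1, 3 or 4 and without tumour replicate 1, 2 or 3, with edgeR adjusted p between 0.0670 and 0.1002. Smad4, the shared partner, was not called and stood at 28.7 ± 8.97 CPM (SD, n = 4) in tumours and 19.7 ± 4.88 (SD, n = 4) in tumour-bearing spleens.

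The genes of inhibitors and corepressors formed the list with the largest number of calls among the 7 pathway lists. By share of tested genes the ligand, latency and activation list had more, with 4 higher and 1 lower of 6 in each comparison. Of the 16 names of inhibitors and corepressors 13 were in the NK table and 12 were tested. Tumour NK were called higher for 9 and lower for 0 of the 12 against tumour-bearing spleens, and for 7 and 0 against healthy spleens. The list medians were 2.02 and 1.81, beside 0.00 and 0.02 over all genes. The members Smad7, Skil and Tgif1 belong to this list, and without them 6 of 9 and 4 of 9 genes were called higher. Both counts include Pmepa1 and Tgif2, which passed the filter on low counts through the tumour libraries alone. Of all genes 15.8% and 16.5% were called higher.

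Smad7 encodes the inhibitory SMAD that acts on the type I receptor, and lies on chromosome 18 (75367529 to 75395935, plus strand). Its healthy spleen values were 94.0, 64.2 and 78.4 CPM, its tumour-bearing spleen values 94.5, 91.0, 47.4 and 66.5, and its tumour values 421, 545, 417 and 493. All tumour libraries lay above all spleen libraries. Smad7 was 6.27-fold higher than in tumour-bearing spleens (log2 2.65, SE 0.19, edgeR adjusted p = 6.46e-09) and 6.05-fold higher than in healthy spleens (log2 2.60, SE 0.22, edgeR adjusted p = 5.09e-08). The spleen groups differed by log2 -0.05 (SE 0.22, edgeR adjusted p = 0.975).

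Tgif1 had the largest difference of the 6 members in both comparisons with spleens. Its level was 20.0, 27.3 and 21.5 CPM in the healthy spleens, and 25.9, 35.7, 24.2 and 15.9 in the tumour-bearing spleens. In the tumours it was 372, 359, 263 and 347 CPM. The groups of tumour and spleen libraries lay far apart, and the spleen groups overlapped. Tgif1 was 13.0-fold higher than in tumour-bearing spleens (log2 3.70, SE 0.19, edgeR adjusted p = 4.43e-11), which placed it at rank 66 of the 8471 genes by log2 difference. Against healthy spleens it was 14.1-fold higher (log2 3.82, SE 0.23, edgeR adjusted p = 3.69e-10), and the spleen groups differed by log2 0.12 (SE 0.25, edgeR adjusted p = 0.929).

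Skil had the largest standard errors of the members. It stood at 55.5, 6.96 and 7.43 CPM in the healthy spleens and at 39.6, 33.5, 6.18 and 5.06 in the tumour-bearing spleens, against 105, 199, 129 and 115 in the tumours. All tumour values exceeded all spleen values, but the spleen values formed a high set of 3 and a low set of 4 that cut across health and tumour bearing. Skil was 6.49-fold higher than in tumour-bearing spleens (log2 2.70, SE 0.71, edgeR adjusted p = 0.0218) and 7.52-fold higher than in healthy spleens (log2 2.91, SE 0.87, edgeR adjusted p = 0.0343). The spleen groups differed by log2 0.21 (SE 0.96, edgeR adjusted p = 0.978). The first call was lost without tumour-bearing spleen replicate 3 (adjusted p = 0.0559) or 4 (0.0509) or tumour replicate 2 (0.0519). The second was lost without healthy spleen replicate 2 (0.136) or 3 (0.129), and without any 1 tumour replicate (0.0530 to 0.0687).

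**Figure D2:**
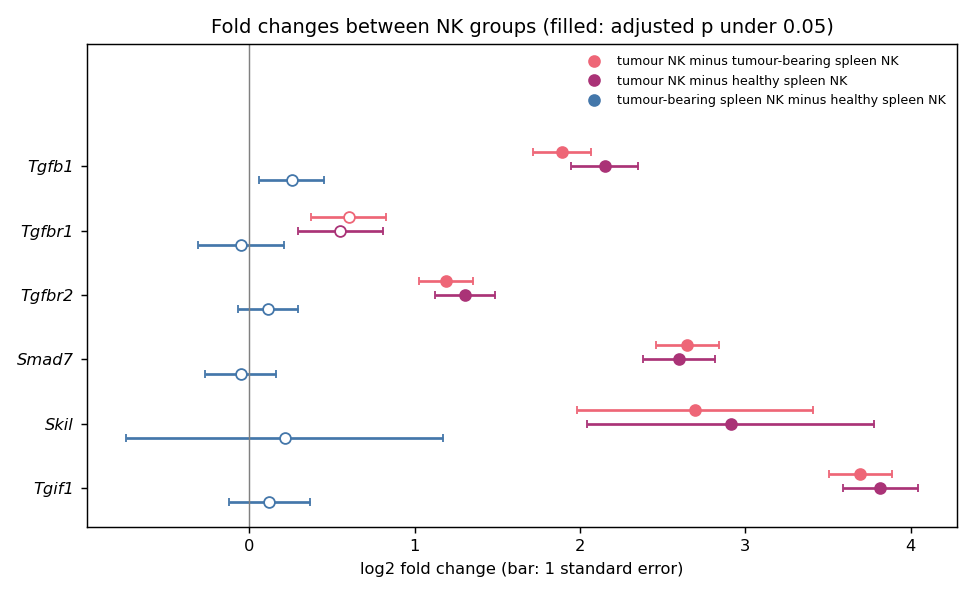
Log2 fold change of each member (horizontal axis) in the 3 comparisons of NK groups, with bars of 1 standard error from the edgeR fit and filled points where the adjusted p was under 0.05. Tgif1 lies farthest right at 3.70 and 3.82, Skil has the widest bars, and all points of the spleen comparison are open.

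The same partition of the spleen libraries appeared across the whole table. The second principal component of the NK libraries, with 15.3% of the variance, put healthy replicate 1 and tumour-bearing replicates 1 and 2 on one side and the other 4 spleen libraries on the other. Skil was 33.5 to 55.5 CPM on the first side and 5.06 to 7.43 on the second. Smad7 (91.0 to 94.5 against 47.4 to 78.4), Tgfbr2 (100.2 to 118 against 69.0 to 89.9) and Tgfbr1 (37.3 to 41.6 against 20.97 to 28.9) likewise did not overlap between the sides. Thus 4 of the 6 members were higher on the first side without overlap, where 15.1% of all genes were, and a further 12.2% were lower there. The sides were drawn from the same table, so nothing is read from this count. Tgif1 and Tgfb1 overlapped, and the highest Tgfb1 value of the spleens, 188 CPM, was in tumour-bearing replicate 4 on the second side. The labels name no batch for this split. In the runs by side only the spleen group under comparison was cut to 1 side, and the other spleen group stayed in the fit whole. The spread in these runs thus still held spleen libraries of both sides. With the first side alone, the log2 difference of Skil from tumour-bearing spleens was 1.88 (edgeR adjusted p = 0.108). From the healthy spleen it was 1.28, where 1 healthy library remained and the spread came from the tumour and tumour-bearing spleen libraries. The log2 difference of Tgfbr1 from tumour-bearing spleens was 0.21 (edgeR adjusted p = 0.565) with the first side and 1.07 (edgeR adjusted p = 0.00267) with the second. Tgif1, Tgfb1, Tgfbr2 and Smad7 were called higher in tumours with either side, with log2 differences of 3.41, 2.23, 0.93 and 2.33 from the tumour-bearing spleens of the first side. With the first side alone the calls of Smad1, Smad3, Zeb1 and Runx1 against tumour-bearing spleens were lost too (edgeR adjusted p between 0.147 and 0.400). So were those of Smad5, Tab2, Zeb1 and Zeb2 against the 1 healthy library of that side. With the second side alone the call of Ltbp3 against tumour-bearing spleens was lost (edgeR adjusted p = 0.224). The source of the split was not tested.

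Further inhibitor genes were higher in tumour NK libraries. Pmepa1, whose product sequesters receptor SMADs, had 39.8 ± 7.16 CPM (SD, n = 4) in tumours, and in no spleen library more than 2 counts, which is under the limit of 3 counts that a value of 0 allows. Tgif2, a paralog of Tgif1, had 40.7 ± 8.88 CPM (SD, n = 4) in tumours and at most 4 counts in any spleen library. No fold is given for either. Both were called higher in both comparisons, but they passed the filter on low counts through the tumour libraries alone. Nothing is therefore read from these calls. Ldlrad4, an inhibitor of receptor SMAD activation, rose from 5.99 ± 1.02 (SD, n = 4) in tumour-bearing spleens to 54.0 ± 10.4 CPM (SD, n = 4), 8.99-fold (edgeR adjusted p = 1.37e-08). The gene of the corepressor SKI rose from 38.0 ± 6.69 (SD, n = 4) to 101 ± 10.6 CPM (SD, n = 4), 2.62-fold (edgeR adjusted p = 1.43e-06). Ppm1a and Smurf2 were the other called genes against tumour-bearing spleens, at 1.44-fold and 1.41-fold.

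Among SMAD cofactors and other signal carriers, 24 names with 20 tested, 3 were called higher and 1 lower against tumour-bearing spleens, and 2 higher and 1 lower against healthy spleens. Over all genes 29.0% and 30.5% were called in either direction, so calls were no more frequent in this list. Tab2, an adaptor of the TAK1 kinase branch, rose from 212 ± 46.3 (SD, n = 4) to 491 ± 90.9 CPM (SD, n = 4), 2.31-fold (edgeR adjusted p = 0.000190). Runx3, a transcription factor that acts with SMADs, rose from 331 ± 40.0 (SD, n = 4) to 520 ± 30.7 CPM (SD, n = 4), 1.57-fold (edgeR adjusted p = 0.000731), while against healthy spleens it was not called (edgeR adjusted p = 0.0984). Zeb1 and Runx1 were called against tumour-bearing spleens (edgeR adjusted p = 0.0369 and 0.0165), and Zeb1 and Zeb2 against healthy spleens (0.0368 and 0.0355). The Zeb1 call against tumour-bearing spleens was lost without tumour-bearing spleen replicate 3 or 4 or tumour replicate 1, 2 or 3 (adjusted p 0.0537 to 0.151), and that of Runx1 without tumour-bearing spleen replicate 3 or 4 or tumour replicate 4 (0.0504 to 0.0548). Against healthy spleens the Zeb1 call was lost without healthy spleen replicate 2 or 3 or tumour replicate 1, 2 or 3 (0.0503 to 0.156), and that of Zeb2 without healthy spleen replicate 2 or tumour replicate 1, 2 or 4 (0.0557 to 0.361). Of the activin and BMP receptor genes only Acvr1b was tested, and it was not called, and 0 of 16 activin and BMP ligand and antagonist genes were in the NK table.

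Over the 7 lists of pathway components, 45 of 92 genes were tested. Tumour NK were called higher for 18 and lower for 3 against tumour-bearing spleens, and for 14 and 4 against healthy spleens. Without the 6 members, these were 13 and 3, and 9 and 4, of 39. Among those called higher are Pmepa1 and Tgif2, which passed the filter on low counts through the tumour libraries alone. Over all genes 15.8% were called higher and 13.2% lower against tumour-bearing spleens, 29.0% in all. Against healthy spleens the shares were 16.5% and 14.0%, 30.5% in all. Without the members, the calls in either direction against healthy spleens were near that last share, so nothing is read from them. The medians of the 45 were 0.53 and 0.32. Between the spleen groups 0 of the 45 were called by edgeR and 0 by DESeq2, with 6 at an unadjusted p under 0.05. Of all genes 1.58% were called there by edgeR.

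**Figure D3:**
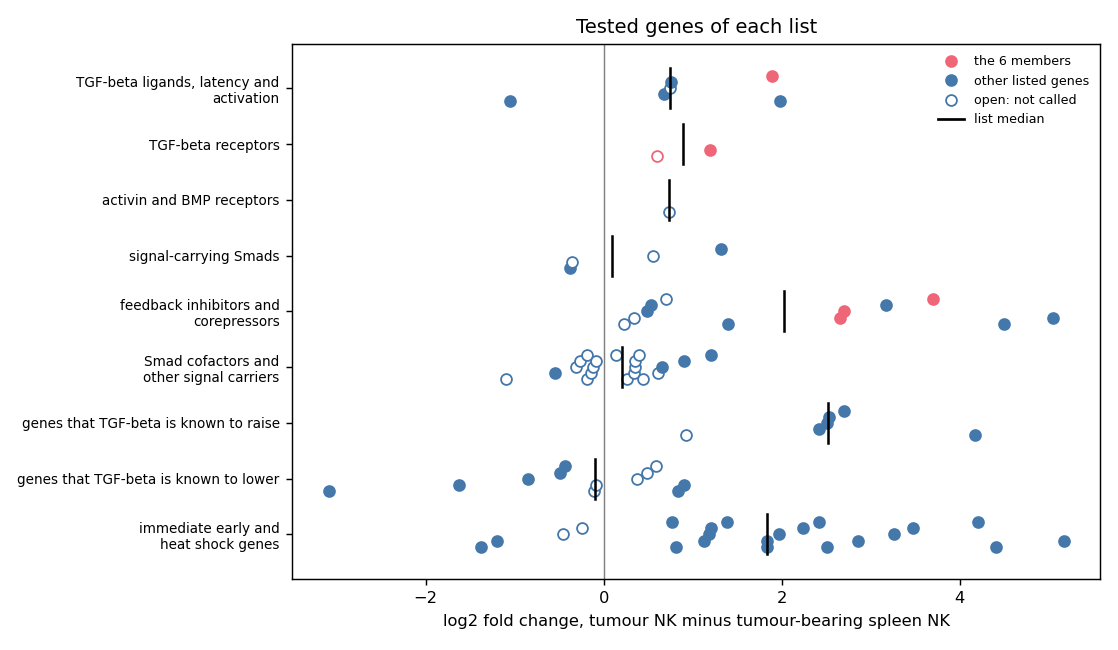
Log2 fold change of each tested gene of 9 gene lists (rows) in tumour NK against tumour-bearing spleen NK, with filled points for called genes, the members in red and the list median as a black bar; vertical position within a row carries no value. The inhibitor list has its median at 2.02 and the cofactor list at 0.20.

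Genes that TGF-beta is known to raise were described next, from a list of 11 names with 6 tested. Tumour NK were called higher for 5 of the 6 and lower for 0 in each comparison, with medians of 2.52 and 2.85. Of all genes 15.8% and 16.5% were called higher, and the list was drawn up with earlier results of these data known. Cdkn1a, which encodes the cell cycle inhibitor p21, rose from 26.3 ± 2.24 (SD, n = 4) in tumour-bearing spleens to 480 ± 69.1 CPM (SD, n = 4), 18.0-fold (edgeR adjusted p = 7.29e-13). Cxcr6, a chemokine receptor of tissue-resident lymphocytes, rose 6.51-fold (edgeR adjusted p = 1.33e-06) from 13.9 to 87.6 CPM. Nt5e, the gene of the ectonucleotidase CD73, rose 5.76-fold (edgeR adjusted p = 0.000691) from 11.5 to 65.0 CPM. Junb, an AP-1 subunit, rose 5.70-fold (edgeR adjusted p = 7.39e-08), and it also belongs to the immediate early genes. Itgae, which encodes the integrin CD103, was not called, at 11.7 ± 5.45 CPM (SD, n = 4) in tumours and 5.78 ± 0.65 (SD, n = 4) in tumour-bearing spleens (log2 0.93, edgeR adjusted p = 0.0861).

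Genes that TGF-beta is known to lower did not move one way. Of 13 names 12 were tested, and tumour NK were called lower for 5 and higher for 2 against tumour-bearing spleens, and lower for 3 and higher for 4 against healthy spleens. Over all genes 13.2% were called lower and 15.8% higher in the first comparison, and 14.0% and 16.5% in the second. S1pr5, a receptor for egress into blood, fell from 367 ± 61.8 (SD, n = 4) to 43.6 ± 6.53 CPM (SD, n = 4), a log2 difference of -3.09 (edgeR adjusted p = 6.48e-11). Klrg1, a marker of mature NK cells, fell from 554 to 179 CPM (log2 -1.62, edgeR adjusted p = 5.40e-08). Prf1, the gene of perforin, fell from 1170 to 649 CPM (log2 -0.85, edgeR adjusted p = 0.00222). That call was lost when the tumour-bearing spleen libraries were cut to the first side of the split (log2 -0.50, edgeR adjusted p = 0.0866). Gzmb, the gene of granzyme B, rose from 1137 ± 70.9 (SD, n = 4) to 2131 ± 221 CPM (SD, n = 4), 1.87-fold (edgeR adjusted p = 0.000110), and it was also 2.54-fold higher in tumour-bearing than in healthy spleens (edgeR adjusted p = 0.000135). Against tumour-bearing spleens the list median was -0.10, and against healthy spleens 0.09.

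Immediate early and heat shock genes, which respond to tissue handling as well as to signals in the cell, moved with the tumour group. Of the 22 tested, tumour NK were called higher for 18 and lower for 2 against tumour-bearing spleens, and for 19 and 0 against healthy spleens, with medians of 1.84 and 2.56. The shares of all genes called higher were 15.8% and 16.5%. Their summed level was 1798 to 2293 CPM in healthy spleens, 2240 to 3427 in tumour-bearing spleens and 8812 to 11777 in tumours. Fosb, an AP-1 subunit, stood at 13.1 ± 8.58 CPM (SD, n = 4) in tumour-bearing spleens and 492 ± 59.5 (SD, n = 4) in tumours. Between the spleen groups, 5 of the 22 were called higher in tumour-bearing mice and 0 lower, among them Egr1 (3.93-fold, edgeR adjusted p = 0.00100). Of all genes 1.23% were called higher there and 0.354% lower. The part of these genes, and of the digestion that moves with them, in the members' differences cannot be told apart from that of the tissue.

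Markers of some other cell types were also higher in the tumour group, and those of others were not. The 3 of 7 neutrophil markers in the NK table summed to 59.8 to 158 CPM in tumours and to at most 11.2 in spleens. The 7 of 10 macrophage markers in the table summed to 39.3 to 239 CPM in tumours and to at most 28.3 in spleens, with the defining marker Adgre1 not listed. The top of that range was tumour replicate 3 alone, and the other 3 tumour libraries had 39.3 to 42.0 CPM. Replicate 3 also had the highest tumour level of Tgfb1, and without it the log2 difference of Tgfb1 from tumour-bearing spleens was 1.81 (edgeR adjusted p = 2.57e-06). In the same way tumour replicate 2 had the neutrophil sum of 158 CPM, beside 59.8 to 73.4 in the others, and the highest tumour levels of Skil, Smad7 and Tgfbr2. Without it the Skil call was lost against tumour-bearing spleens (edgeR adjusted p = 0.0519) and healthy spleens (0.0687), while the calls of Smad7 and Tgfbr2 were kept. Of the 5 carcinoma markers, Epcam and Cdh1 were listed and summed to 27.7 to 54.9 CPM in tumours and at most 3.08 in spleens, with Cdh1 alone at 26.5 to 47.5 CPM in tumours. The 2 of 7 fibroblast markers listed summed to 2.90 to 21.3 CPM in tumours and 3.05 to 12.8 in spleens, and Pecam1, the gene of the sort marker CD31, to 139 to 202 and 41.6 to 94.2. The 10 NK markers were counted in every NK library and summed to 19812 to 24776 CPM in tumours and 27230 to 30446 in spleens. Their part in the members' differences was not tested.

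The likeness of each member's pattern to other genes was taken as Pearson's r of log2 CPM over the 11 NK libraries, which share group, tissue handling and library depth, and the 3 closest genes of each were kept. Tgif1 was closest to Socs3 (r = 0.997), Polg2 and Gadd45b. Socs3, a feedback inhibitor of cytokine signalling, stood at 30.1 ± 5.60 (SD, n = 3), 33.7 ± 8.75 (SD, n = 4) and 290.1 ± 29.2 CPM (SD, n = 4) in healthy spleens, tumour-bearing spleens and tumours. Tgfb1 was closest to Tnfrsf18 (r = 0.986), Nfkb2 and Erf. Smad7 was closest to Cxcl10 (r = 0.997), a chemokine gene at 4.78, 4.91 and 148 CPM in the 3 groups, and to Gpr132 and Krt83, and Tgfbr2 to Cdh1 (r = 0.986), Emp1 and Ctnnb1. Tgfbr1 was closest to Klhl5 (r = 0.963), Twf1 and Cobll1, and Skil to Nabp1 (r = 0.993), Hnrnpk and Tmem123. With each group's mean removed, r fell to 0.579 for Tgif1 with Gadd45b, and was 0.962 for Tgfbr1 with Klhl5 and 0.984 for Skil with Nabp1. Of the 18 genes, 4 were again among the 3 closest by Spearman's rho and 1 with group means removed, so the names depend on the measure.

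In the sCAF libraries all 6 members were counted in every library, on a table scaled on its own totals and therefore not tested against NK cells. Tgfb1 had 76.7, 78.1 and 84.1 CPM in replicates 1 to 3, a spread of 3.93 (SD, n = 3). Tgfbr1 had 190, 170 and 240 CPM and Tgfbr2 67.7, 37.2 and 51.8. Smad7 had 119, 113 and 167 CPM, Skil 32.3, 30.3 and 33.0, and Tgif1 214, 171 and 291. Replicate 3 was the highest of the 3 for every member but Tgfbr2. In tumour NK the mean levels were 498 ± 49.2 CPM for Tgfb1 and 214 ± 19.6 for Tgfbr2 (SD, n = 4), given side by side with no test.

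Of the 17 ligand, latency and activation genes, 15 were in the sCAF table and 14 had over 3 counts in every library. Among them 8 were in the sCAF table and not in the NK table. Tgfb3, the third ligand gene, stood at 119 ± 34.7 CPM (SD, n = 3), and Tgfb2 at 6.32 ± 4.34 (SD, n = 3). The genes of the list with the highest CPM were those of the latency binding proteins Ltbp3, at 955 ± 86.1 (SD, n = 3), and Ltbp4, at 372 CPM, and of the proteases Mmp14, at 474 CPM, and Mmp9, at 303 ± 164 (SD, n = 3). Of the receptor genes all 5 were listed, with Eng, a coreceptor, at 228 CPM and Tgfbr3, another coreceptor, at 48.0. Smad3 stood at 171 ± 22.9 CPM (SD, n = 3), and of the inhibitor genes 13 of 16 had over 3 counts in every library, among them Pmepa1 at 88.9 ± 22.2 (SD, n = 3). Of the genes that TGF-beta is known to raise, Nt5e had 239 CPM and Ccn2, a matrix gene, 149.

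**Figure D4:**
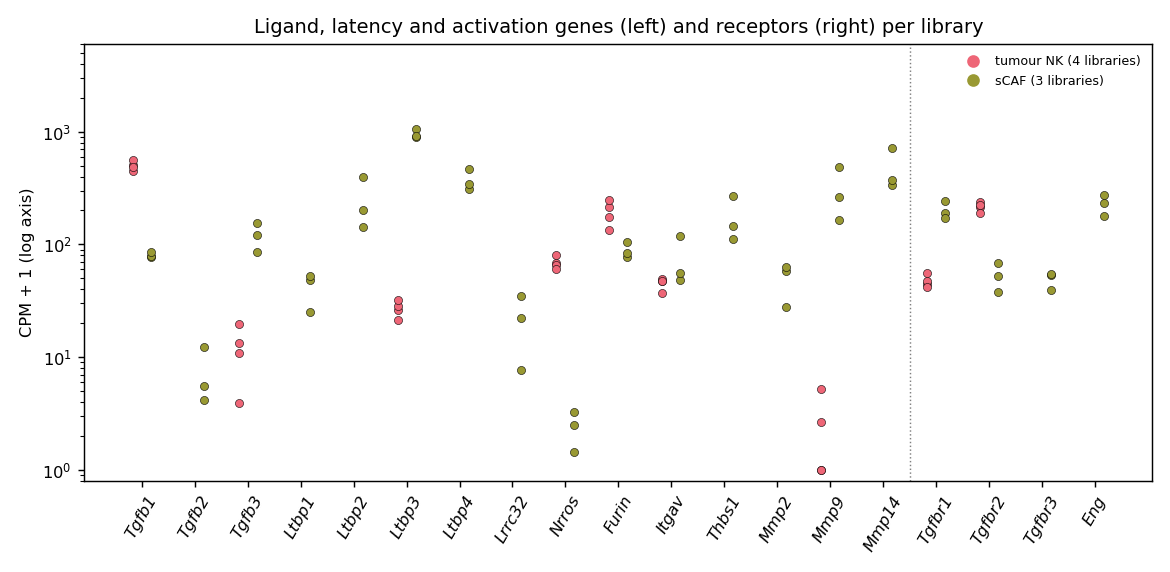
CPM plus 1 on a logarithmic axis for 19 genes of ligands, latency, activation and receptors, 1 point per library of tumour NK (red) and sCAFs (olive), with no point where a gene is not in that group's table. The tumour NK points of Tgfb1 lie between 447 and 564 CPM and those of the sCAFs between 76.7 and 84.1, from tables scaled separately.

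The sorted sCAF libraries were checked against their label. All 7 fibroblast markers were counted in every library and summed to 454 to 1210 CPM. The 5 carcinoma or epithelial markers were also counted in every library and summed to 2995 to 3861 CPM, mostly from the keratin genes Krt18, at 2515 ± 415 CPM, and Krt8, at 760.1 ± 67.8 (SD, n = 3). The other epithelial markers, Epcam, Cdh1 and Krt14, stood at 19.3, 22.5 and 18.9 CPM. Of the fibroblast markers Col1a2 stood at 321, Col3a1 at 197, Pdgfrb at 103, Dcn at 97.0, Col1a1 at 67.2 and Pdgfra at 62.2 CPM, and Lum at 1.05. The summed levels thus go against the name of the libraries through Krt18 and Krt8 alone, and the remaining epithelial markers were below all fibroblast markers but Lum. Of the 10 NK markers 1 was listed, at 0.75 to 2.69 CPM. The immediate early and heat shock genes summed to 24124 to 25092 CPM in these libraries, which came from digested tumours. The part of other cell types in the sCAF levels was not tested.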

How the data were processed

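RNA was measured by 3′ end RNA-seq of polyA RNA in 11 NK and 3 sCAF libraries. The authors deposited whole-number counts per gene symbol in one table for NK cells and one for sCAFs, and the submitters' processing notes name bcl2fastq, STAR 2.4.2a, HTSeq and the build mm10. Use of molecular identifiers and of strand is not given in the sources used here. The highest count of every NK gene was 6 or more, and a gene missing from a table has no value. In the NK header, spaces stand in place of a tab between the names of tumour replicates 3 and 4, which were read in the order of the names.

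Genes kept by filterByExpr (8471) were fitted in edgeR 4.0.16 (R 4.3.3) with TMM scaling, 1 robust quasi-likelihood model over the 11 NK libraries and the group as the only term. Levels of NK cells are CPM on TMM library sizes, and those of sCAFs are CPM on totals over the listed genes. Alternatives were other scalings, DESeq2 1.42.0, no filter, the 2 groups alone, a replicate block and leaving out each library. In further runs each side of the spleen split was left out within the spleen group compared with tumours, and the other spleen group stayed whole. Between the spleen groups the side was a term instead. The fit was tested on simulated data.

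The members and gene lists were chosen with earlier results of these data known, so their counts are descriptions beside those of all genes. Named beside the members are up to 4 called genes per list and comparison with the largest change, up to 4 genes per list with the highest sCAF level, and the 3 genes closest to each member; the other genes were named after their values were seen. Replicate pairs of a group differed by more than sampling noise. No p was adjusted over a list and no set was tested. Some genes of the lists are not reported here.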

Additional observations from a re-analysis of the deposited data

How the results depend on the processing

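The calls of Tgif1, Tgfb1, Tgfbr2 and Smad7 in tumour NK against either spleen group kept their direction and stayed past the threshold under every alternative run. Leaving out 1 library gave Skil a log2 difference of 2.36 to 3.11 against tumour-bearing spleens and 2.31 to 4.22 against healthy ones, and Tgfbr1 one of 0.46 to 0.80 and 0.42 to 0.71. With the compared spleen group cut to the first side of the split, Skil had 1.88 against tumour-bearing spleens and was not called. It had 1.28 against the 1 healthy library left. With the second side alone, Tgfbr1 had 1.07 and 0.71 and was called, where the run against healthy spleens was the same as that without healthy spleen replicate 1. With the libraries of both groups alone Tgfbr1 had 0.59 against tumour-bearing spleens and was called. The count of called genes fell from 2453 to 1478 against tumour-bearing spleens and from 2582 to 1090 against healthy spleens with the first side alone, which holds fewer libraries, and the pathway genes called against healthy spleens from 18 to 11.

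Between the spleen groups the 134 calls became 42 to 128 on leaving out 1 library, 42 without healthy replicate 2 and 67 without healthy replicate 3, and 733 with the side of the split as a term, where 3 pathway genes were called in place of 0. There the differences of the members other than Tgfb1 changed sign under some alternatives, and that of Tgfb1 did not. Leaving out 1 library gave -0.10 to 0.30 for Tgif1, -0.25 to 0.11 for Tgfbr1, -0.021 to 0.24 for Tgfbr2, -0.20 to 0.12 for Smad7 and -0.39 to 1.52 for Skil. The side term gave -0.0046 for Tgif1, -0.029 for Tgfbr2 and -0.54 for Skil, and DESeq2 -0.13 for Skil. The cause was not tested.

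With the replicate number as a replicate block, calls against healthy spleens fell to 1491, Skil had 3.09 and was not called there (adjusted p = 0.0738), Tgfbr1 had 0.64 against tumour-bearing spleens and was called (0.0248), and Tgfbr1 had 0.047 between the spleens. Whether libraries with the same number deviate together was mixed (r from -0.0471 to 0.288, from -0.195 to 0.0445 and from -0.353 to 0.501 in the 3 comparisons): some pairs were above 0.1, but not every pair of any comparison, so the numbers were not taken to pair the libraries. On totals over genes listed in both tables the sCAF levels were 86.7 CPM for Tgfb1 and 34.7 for Skil. Of the 18 closest genes 4 remained by Spearman's rho and 1 with group means removed. Depth limits the genes with few counts, Smad1, Zeb2, Pmepa1 and Tgif2.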

Other observations

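Genes of the neighbouring activin and BMP branches were also counted in the sCAF libraries. Of their 16 ligand and antagonist genes 14 were in the sCAF table, 7 of them with over 3 counts in every library and 1, Bmp4, at 0 in all, and none was in the NK table. Dcn, the gene of decorin, a matrix proteoglycan that binds TGF-beta, stood at 97.0 ± 53.7 CPM (SD, n = 3), and Fstl3, the gene of an activin antagonist, at 91.7 ± 21.9 (SD, n = 3). Bmp7, a BMP ligand, stood at 39.1 ± 9.69 CPM (SD, n = 3). The type I receptor genes Acvr1 and Bmpr1a stood at 72.2 ± 4.06 and 48.1 ± 17.5 CPM (SD, n = 3), and the BMP carrier Smad5 at 93.3 ± 2.90 (SD, n = 3). Id3, a target of BMP signals, stood at 2243 ± 386 CPM and Id1 at 72.4 ± 32.2 (SD, n = 3). These levels have no group to be compared with.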
